A study of Mus musculus with 2 samples.

Results

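The insulin-like growth factor (IGF) genes described here are 10 rows of the deposited expression tables, taken by gene symbol from 20634 genes in all. They are the ligand gene Igf1, the receptor gene Igf1r, the receptor substrate genes Irs1 and Irs2, and the binding protein genes Igfbp2 to Igfbp7. RNA was sequenced from whole uterus of pregnant mice on gestational day 4, with the vaginal plug counted as day 1, in 1 library labelled Mettl3 ed/ed and 1 library labelled Mettl3 f/f. Females were 6 to 8 weeks old and had been mated with fertile males. Mettl3 encodes the enzyme that places the methyl mark m6A (N6-methyladenosine) on RNA. The sources used here give neither the meaning of the genotype letters, nor the driver of any recombination, nor the number of animals in a library. Each uterus was taken whole, so a lower value in one library can mean fewer cells of a type or less RNA per cell, which cannot be told apart.

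IGF1 is a secreted hormone that binds the receptor tyrosine kinase IGF1R. The activated receptor phosphorylates the docking proteins IRS1 and IRS2, which recruit PI3-kinase and start AKT and mTOR signalling. Most extracellular IGF is held by binding proteins of the IGFBP family, which carry it, keep it from the receptor or release it when cut by proteases. In the rodent uterus Igf1 is an estrogen-induced stromal gene whose product acts on the overlying epithelium, and IGF binding proteins mark stromal, vascular and decidual cells.

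Values were taken as FPKM, which scales fragments by transcript length and by the mapped total, a level that can be compared between genes. Ratios are given as log2, ed/ed over f/f, after 1 FPKM was added to each value, so a negative ratio is a lower level in ed/ed. The call was a 2-fold difference on that scale, among the 12165 genes that reached 1 FPKM in at least 1 library. Each genotype has 1 library, so nothing was tested, no spread between animals is known, and every difference is one between these libraries. Depth was estimated at 17200000 fragments in ed/ed and 18200000 in f/f. The targeted gene, Mettl3, was at 10.2 FPKM in ed/ed and 10.6 FPKM in f/f, so its level did not separate the libraries, and directions rest on the labels.

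All 10 members were listed with values above 0 in both libraries, and 8 of them reached 1 FPKM in at least 1 library. The binding proteins Igfbp4, Igfbp5 and Igfbp7 were at least 2-fold lower in ed/ed, which made 3 of the 8 members compared, beside 6.22% of all genes compared. With ratios centred on the median of all genes it was 1 of the 8, beside 2.72%. Members were chosen with earlier results of these data known, so these counts are not independent of that choice. None of the 8 was at least 2-fold higher, beside 2.68% of all genes. Ratios lay below 0 in 7 of the 8 and in 70.4% of all genes. The median log2 ratio was -0.56 over the 8 members and -0.26 over all genes (SD 0.58 across genes). Igf1, Igfbp6, Irs1 and Igfbp3 were lower by less than 2-fold, and Igf1r was nearly equal in both libraries.

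**Figure D1:**
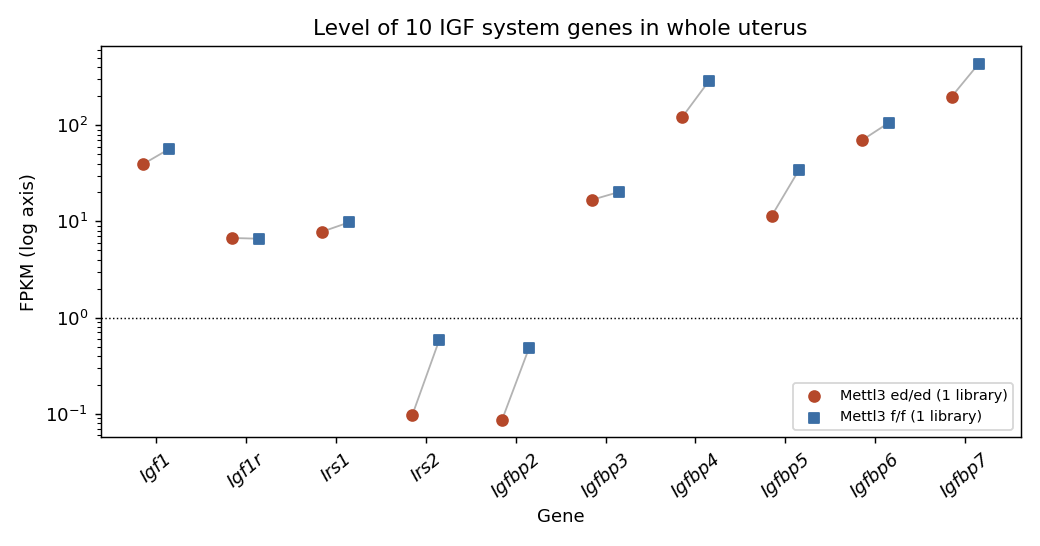
FPKM on a log axis (y) of the 10 genes (x), with a circle for the Mettl3 ed/ed library and a square for the Mettl3 f/f library, joined by a line; the dotted line marks 1 FPKM. Levels run from under 0.1 FPKM for Irs2 and Igfbp2 in ed/ed to 437 FPKM for Igfbp7 in f/f, and the ed/ed point is the lower of the pair in every gene but Igf1r.

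Igf1 (ENSMUSG00000020053), at 87858265 to 87937042 on chromosome 10 of GRCm38, was at 39.1 FPKM in ed/ed and 57.0 FPKM in f/f. The log2 ratio was -0.53, a 1.44-fold lower level in ed/ed, short of the 2-fold rule. It was the 1723rd most abundant gene in ed/ed and the 1321st in f/f. Igf1 has 8 annotated coding transcripts of 510 to 7052 nt, and the deposited value sums whatever isoforms were present. With the shortest transcript, which gives the fewest fragments, 175 and 270 fragments stood behind these values in ed/ed and f/f. The plain FPKM ratio was 0.687, and its 95% counting interval ran from 0.564 to 0.833. With the longest transcript, which gives 4581 and 7059 fragments, the bounds were 0.662 and 0.713. The wider interval includes 0.823, the median ratio of the genes with 1 FPKM or more in both, and the narrower one lies below it. The log2 ratio stood at percentile 27.1 of all genes. The start of Igf1 overlaps an antisense gene, Igf1os, and since no source used here says whether strand was kept, reads of such pairs cannot be told apart.

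Igf1r (ENSMUSG00000005533, chromosome 7, positions 67952827 to 68233668) encodes the receptor for IGF1 and had the highest ratio of the members. It was at 6.73 FPKM in ed/ed and 6.61 FPKM in f/f, with a log2 ratio of 0.02. The FPKM ratio was 1.02 with counting bounds of 0.943 and 1.10, from 1292 fragments in ed/ed and 1343 in f/f. The ratio stood at percentile 71.9 of all genes compared. Its annotated coding transcript of 11409 nt falls in the last of 10 groups of like size ordered by transcript length, whose median log2 ratio was -0.43. With the trend of ratios with transcript length removed, the log2 ratio of Igf1r was 0.48, and it stayed above 0 under all 4 other scalings.

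Irs1 (ENSMUSG00000055980, chromosome 1, positions 82233101 to 82291416) encodes the receptor substrate that was the more abundant of both. It was at 7.84 FPKM in ed/ed and 9.81 FPKM in f/f, a log2 ratio of -0.29, close to the median of all genes and at percentile 47.1. The counting interval of the FPKM ratio of 0.799 was 0.741 to 0.862. The direction turned to 0.15 once the length trend was removed, while under the 4 other scalings it stayed below 0. A gene on the other strand, Gm9747, overlaps the end of Irs1.

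Irs2 (ENSMUSG00000038894, chromosome 8, positions 10984681 to 11008458) encodes the other substrate and was at 0.0964 FPKM in ed/ed and 0.583 FPKM in f/f. Both values lay under 1 FPKM, so Irs2 was not among the genes compared, and a pseudocount of 1 reduces the difference to a log2 ratio of -0.53. Over the transcript of 6323 nt these values correspond to 10 fragments in ed/ed and 65 in f/f. The plain FPKM ratio was 0.165, with a counting interval of 0.0746 to 0.319. The difference was larger than counting error at this depth, though the spread between animals is unknown. With a pseudocount of 0.1 the log2 ratio was -1.80. The noncoding gene 9530052E02Rik overlaps the start of Irs2 on the other strand.

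Among the binding proteins, Igfbp7 was the most abundant member in both libraries. It encodes a secreted protein of vessels and stroma that binds IGFs with lower affinity than the other IGFBPs. Igfbp7 (ENSMUSG00000036256, chromosome 5, positions 77349240 to 77408041) was at 199 FPKM in ed/ed and 437 FPKM in f/f, a 2.19-fold lower level with a log2 ratio of -1.13. It ranked 323rd of all genes by level in ed/ed and 160th in f/f. The FPKM ratio was 0.456, with counting bounds of 0.436 and 0.476. Its transcripts of 1116 and 1200 nt lie in the first of those 10 groups, whose median log2 ratio was -0.01. The last bases of Igfbp7 overlap those of Polr2b on the other strand, and Gm34648 lies antisense within the gene.

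Igfbp4, whose product keeps IGFs from the receptor until the protease PAPP-A cuts it, came next in level. Igfbp4 (ENSMUSG00000017493, chromosome 11, positions 99041244 to 99054392) was at 121 FPKM in ed/ed and 289 FPKM in f/f. That was a 2.38-fold lower level, with a log2 ratio of -1.25, the 337th lowest of the 12165. The FPKM ratio was 0.418, with counting bounds of 0.376 and 0.464 for the shortest of its 3 coding transcripts.

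Igfbp5 had the lowest ratio of the 8 members compared, while the plain FPKM ratios of Irs2 and Igfbp2, which were not compared, were lower still. IGFBP5 is a heparin-binding family member that attaches to extracellular matrix. Igfbp5 (ENSMUSG00000026185, chromosome 1, positions 72857932 to 72874884) was at 11.5 FPKM in ed/ed and 34.2 FPKM in f/f, a 2.81-fold lower level. Its log2 ratio of -1.49 was the 164th lowest of the 12165 genes, and the FPKM ratio was 0.337, with counting bounds of 0.315 and 0.361. By level it ranked 5162nd in ed/ed and 2293rd in f/f. Its coding transcript of 6006 nt lies in a group of genes whose median log2 ratio was -0.37.

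Igfbp6, which binds IGF2 in preference to IGF1, was at 69.7 FPKM in ed/ed and 106 FPKM in f/f. Igfbp6 (ENSMUSG00000023046, chromosome 15, positions 102144362 to 102149511) had a log2 ratio of -0.60 and was not called. Its FPKM ratio was 0.657, with counting bounds of 0.607 and 0.711. Both lie below 0.823, the median ratio of the genes with 1 FPKM or more in both libraries. Igfbp3, the main IGF carrier of blood plasma, was at 16.8 FPKM in ed/ed and 20.3 FPKM in f/f. Igfbp3 (ENSMUSG00000020427, chromosome 11, positions 7206086 to 7213923) had a log2 ratio of -0.26, equal to the median of all genes, and turned to 0.04 under scaling by the reference genes and to just above 0 under scaling by the median ratio. Its counting interval was 0.729 to 0.945 around an FPKM ratio of 0.829.

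Igfbp2 (ENSMUSG00000039323, chromosome 1, positions 72824503 to 72852474) was near the detection limit, at 0.0870 FPKM in ed/ed and 0.485 FPKM in f/f. These values correspond to 1 fragment in ed/ed and 7 in f/f, and the counting interval of the ratio, 0.00335 to 1.18, includes 1. Igfbp2 and Igfbp5 lie tail to tail on chromosome 1, with 5457 nt between their ends. The lower level in ed/ed of Igfbp5 was outside counting error, whereas no difference of Igfbp2 was detectable at this depth. Igfbp1 is arranged in the same way with Igfbp3, 3539 nt away, and was listed at 0 in both libraries. IGFBP1 is a secreted protein of human decidual cells and of liver. Igfbpl1 was also listed at 0, and Igfals, which encodes the partner of IGFBP3 in plasma, was at 0.0307 FPKM in ed/ed and 0.239 FPKM in f/f.

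**Figure D2:**
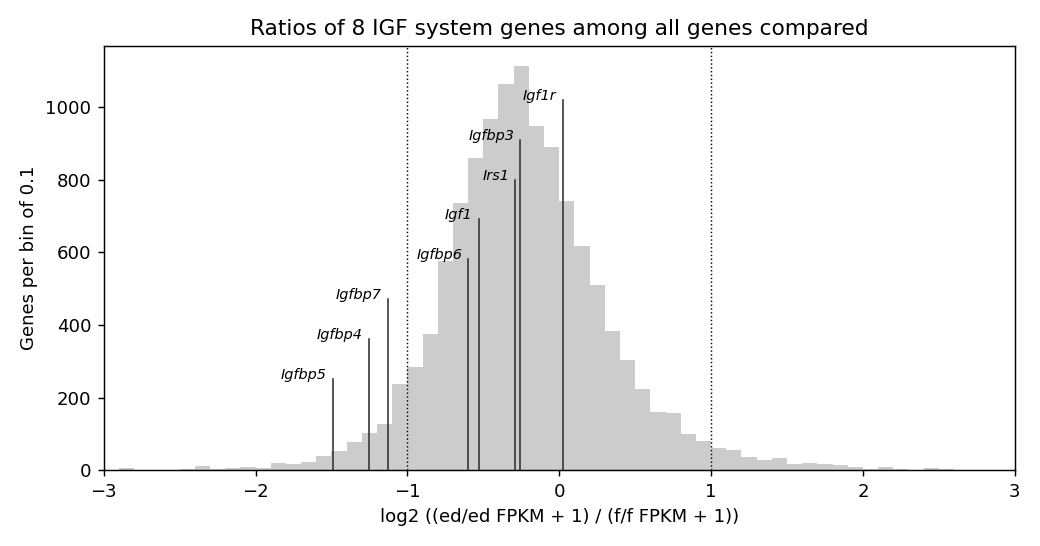
Number of genes per bin of 0.1 (y) by log2 ratio of ed/ed over f/f on the FPKM + 1 scale (x) for the 12165 genes compared, in grey, with a labelled line at the ratio of each of the 8 members compared (line height carries no value); dotted lines mark 2-fold. Igfbp5, Igfbp4 and Igfbp7 lie to the left of the lower 2-fold line, at percentiles 1.35, 2.77 and 3.92, and the other 5 lie within the main body of genes.

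Because the 3 members called share a direction, the 250 bases before their RefSeq start sites are shown, with Igf1r beside them as the member that was level. Sequences are from RefSeq on GRCm38.p6 and read 5′ to 3′ on the strand of the gene. They cover chr11:99040994-99041243 for Igfbp4 (plus strand), chr1:72874866-72875115 for Igfbp5 (minus strand), chr5:77408046-77408295 for Igfbp7 (minus strand) and chr7:67952007-67952256 for Igf1r (plus strand). For Igf1r the RefSeq start lies upstream of the gene start given above, 67952827, which comes from another annotation. Capitals mark every match, on either strand, to any of 5 motifs. The TATA box was searched as TATAAA and the GC box as GGGCGG. The FOXO site was searched as TGTTTAC, and the AP-1 site as TGACTCA. The CCAAT box was searched by the letters of its name. No match overlaps another.
Igfbp4: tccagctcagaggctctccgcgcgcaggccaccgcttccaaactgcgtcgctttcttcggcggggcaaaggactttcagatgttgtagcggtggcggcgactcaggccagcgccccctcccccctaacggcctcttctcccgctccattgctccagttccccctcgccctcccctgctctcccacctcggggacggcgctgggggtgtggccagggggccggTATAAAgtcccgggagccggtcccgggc
Igfbp5: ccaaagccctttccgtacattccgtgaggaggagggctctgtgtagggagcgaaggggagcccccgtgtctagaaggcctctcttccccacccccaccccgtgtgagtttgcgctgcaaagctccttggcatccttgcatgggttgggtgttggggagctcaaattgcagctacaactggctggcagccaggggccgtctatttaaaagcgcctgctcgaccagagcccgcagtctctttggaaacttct
Igfbp7: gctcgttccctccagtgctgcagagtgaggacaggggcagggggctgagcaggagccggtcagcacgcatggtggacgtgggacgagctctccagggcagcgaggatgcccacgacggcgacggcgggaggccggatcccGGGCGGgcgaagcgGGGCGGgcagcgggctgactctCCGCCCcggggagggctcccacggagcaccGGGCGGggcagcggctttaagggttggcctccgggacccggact
Igf1r: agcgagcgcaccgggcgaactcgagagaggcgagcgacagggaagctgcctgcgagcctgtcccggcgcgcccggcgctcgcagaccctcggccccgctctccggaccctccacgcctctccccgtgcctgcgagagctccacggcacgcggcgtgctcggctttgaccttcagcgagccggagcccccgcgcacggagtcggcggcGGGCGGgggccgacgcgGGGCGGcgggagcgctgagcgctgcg

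The 3 promoters had no motif of this set in common. Igfbp4 held 1 TATA box, whose first base is 28 bases before the start, a motif found in 13.6% of 32851 RefSeq windows of 300 bases (250 before to 50 after a start). Igfbp7 held 4 GC boxes, at -110, -96, -74 and -44, and Igf1r held 2, at -43 and -26, against 35.7% of windows with at least 1. In Igfbp5 none of the 5 motifs was found. Igfbp6, which was not called, held a TATA box at -148 and CCAAT boxes at -107 and -50. Matches to the CCAAT box occur in 37.4% of windows, to the FOXO site in 3.65% and to the AP-1 site in 5.2%, and none was found in these 4. The 300-base windows of Igfbp4 and Igfbp7 were rich in G and C, at 71.3% and 73.3%, but so was that of Igf1r at 76.0%, and that of Igfbp5 was at 56.3%, against a median of 52.7%. A match describes letters and does not show binding.

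Summed over the 6 binding protein genes, the level was 418 FPKM in ed/ed and 887 FPKM in f/f, a ratio of 0.471. The makeup of that sum differed less than its size. Igfbp7 made up 47.6% in ed/ed and 49.3% in f/f, and Igfbp4 made up 28.9% and 32.6%. Igfbp6 took a larger share in ed/ed, 16.7% against 12.0% in f/f, as did Igfbp3 with 4.02% against 2.28%. Igfbp5 held 2.76% in ed/ed and 3.85% in f/f, and Igfbp2 held 0.0208% and 0.0547%. For each 100 FPKM of these binding proteins there were 9.36 FPKM of Igf1 in ed/ed and 6.42 FPKM in f/f, a ratio of 1.46. The division fixes this direction, since any gene with an FPKM ratio above 0.471 gives a quotient above 1. The median ratio of 0.823 over genes with 1 FPKM or more in both libraries is above 0.471. Igf1, at 0.687, lay below that median, so the higher quotient is not particular to Igf1. Shares and this quotient are taken within a library and do not change when 1 factor scales a whole library. They do depend on the length trend, without which they were not computed. Its removal moved the log2 ratio of Igf1 from -0.53 to -0.13 and that of Igfbp7 from -1.13 to -1.05.

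**Figure D3:**
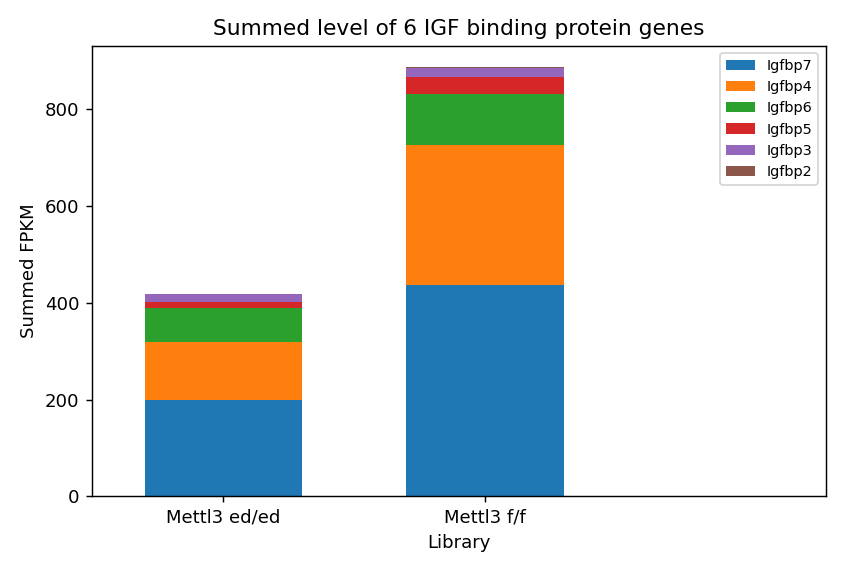
Summed FPKM (y) of 6 IGF binding protein genes, stacked, in the Mettl3 ed/ed library and the Mettl3 f/f library (x, 1 library each, no error bars). The ed/ed stack reaches 418 FPKM and the f/f stack 887 FPKM, and Igfbp7 with Igfbp4 form most of both; Igfbp2 is too low to be seen.

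Markers of stroma and vessels were lower in ed/ed as well. All 12 stroma markers had ratios under the all-gene median, and as deposited 4 passed 2-fold lower in ed/ed. Their summed level was 703 FPKM in ed/ed and 1373 FPKM in f/f, a ratio of 0.512. Of 11 endothelial markers 10 were compared, 7 of which were at least 2-fold lower, and the sum was 90.0 FPKM in ed/ed and 211 FPKM in f/f. All 6 pericyte markers had ratios below 0, and 2 were at least 2-fold lower, with sums of 41.5 FPKM in ed/ed and 97.4 FPKM in f/f. Without the length trend, 1 stroma, 2 endothelial and 0 pericyte markers were 2-fold lower, with list medians of -0.66, -0.94 and -0.33. No marker of these 3 lists was at 0 in either library. The part of these cell types in the binding protein levels was not tested.

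Relative to the summed stroma markers of the same library, a comparison chosen after the data were seen, Igfbp4 was at 17.2% in ed/ed and 21.1% in f/f. Igfbp7 was at 28.3% and 31.8%, and Igfbp5 at 1.64% and 2.49%. The quotients of these shares, ed/ed over f/f, were 0.816 for Igfbp4, 0.890 for Igfbp7 and 0.659 for Igfbp5, all within 2-fold. On the same scale the quotient was 1.34 for Igf1, 1.28 for Igfbp6, 1.62 for Igfbp3, 1.56 for Irs1 and 1.99 for Igf1r. For the 2 members under 1 FPKM it was 0.323 for Irs2 and 0.350 for Igfbp2, Igfbp2 resting on 1 fragment in ed/ed. Igf1, Igfbp6, Igfbp3 and Irs1 thus changed side, lower as deposited in ed/ed and higher relative to stroma markers. The division fixes this, since the stroma sum had a ratio of 0.512 and any gene with an FPKM ratio between 0.512 and 1 changes side. The median ratio of 0.823 over genes with 1 FPKM or more in both libraries is in that range, so the change is not particular to these members. Igf1 and Igfbp6, at FPKM ratios of 0.687 and 0.657, lay below that median on either scale.

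The remaining marker lists differed among themselves. Of the 10 smooth muscle markers, 9 had ratios above 0 and 0 lay under the all-gene median, with a median log2 ratio of 0.52. Of the 10 epithelial markers, 7 had ratios above 0 and 3 lay under the all-gene median. The 10 smooth muscle markers summed to 980.5 FPKM in ed/ed and 606 FPKM in f/f, with 1 at least 2-fold higher, and the 10 epithelial markers summed to 2917 FPKM in ed/ed and 2831 FPKM in f/f, with none called. Luminal epithelium had 3 of 8 compared markers at least 2-fold higher, while its sum was lower in ed/ed, at 865 FPKM against 913 FPKM in f/f. Glandular epithelium had 4 of 6 at least 2-fold higher, with sums of 57.7 FPKM in ed/ed and 26.7 FPKM in f/f. Of 9 macrophage markers compared, 2 were at least 2-fold higher and 1 lower, and of 4 lymphocyte markers compared none was called. The fat list had no marker at 1 FPKM, with all 6 at 0 in at least 1 library, and of the ovary and oviduct list only Ovgp1 was compared. Of the mesothelium list 1 gene was compared and of the red blood cell list 5, with none called.

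The calls depended on how the libraries were set against each other. Igfbp5 was at least 2-fold lower under all 4 other scalings and without the length trend, at log2 ratios of -1.11 to -1.41. Igfbp4 ranged from -0.94 to -1.17 and Igfbp7 from -0.81 to -1.05 over the same 5 alternatives. With ratios centred on all genes compared, 1 member, Igfbp5, was 2-fold lower, beside 2.72% of all genes, and 0 were higher, beside 4.96%. With the length trend removed, Igfbp5 and Igfbp7 were 2-fold lower, beside 2.85% of all genes, and 0 members were higher, beside 4.32%.

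**Figure D4:**
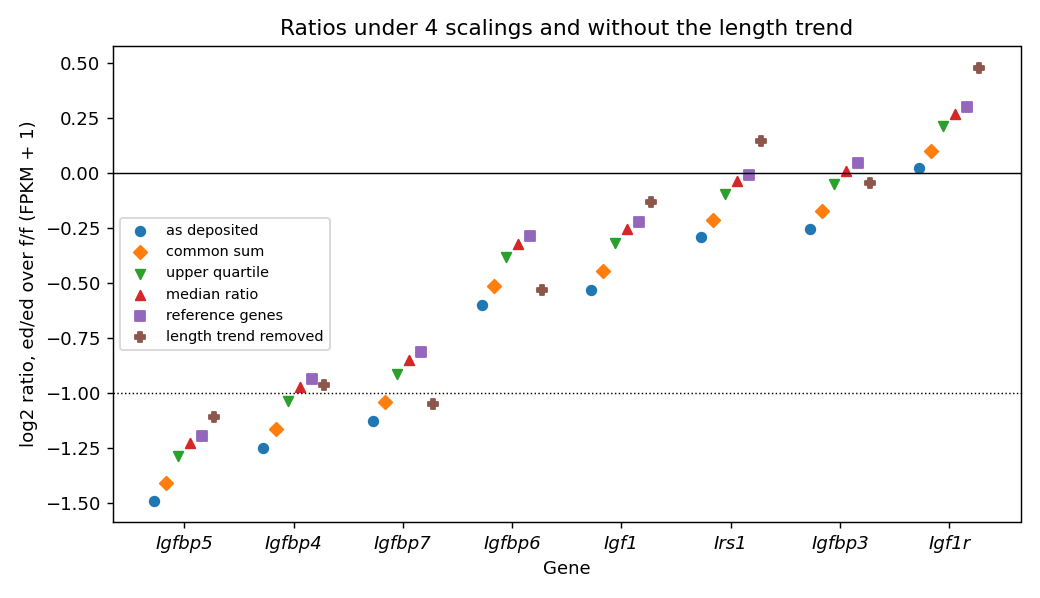
log2 ratio of ed/ed over f/f on the FPKM + 1 scale (y) of the 8 members compared (x), as deposited, under 4 scalings of ed/ed to f/f and with the length trend removed; the dotted line marks 2-fold lower. Igfbp5 stays under the 2-fold line in every setting shown, Igfbp4 and Igfbp7 cross it, Irs1 and Igfbp3 cross 0, and Igf1r stays above 0.

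The wider pathway was read from gene lists, with 99 gene symbols beyond the members, of which 87 were matched and 72 compared. Of the 72 compared, 7 were at least 2-fold lower, beside 6.22% of all genes, and 2 were higher, beside 2.68%. Their median log2 ratio was -0.42, against -0.26 over all genes. The CCN genes of these lists, entered under older and newer symbols, were matched under neither. The second IGF ligand gene, Igf2, was at 0.581 FPKM in ed/ed and 2.35 FPKM in f/f, with a log2 ratio of -1.08. The insulin genes Ins1 and Ins2 were listed at 0 in both libraries. The receptor genes did not pass 2-fold. Insr, the insulin receptor gene, was at 7.30 FPKM in ed/ed and 6.59 FPKM in f/f. Igf2r, whose product clears IGF2 from the cell surface, was at 7.67 FPKM in ed/ed and 10.97 FPKM in f/f.

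Proteases that release IGF from its binding proteins, and their inhibitors, formed the pathway list with the lowest median of the 10, -1.20 over 5 compared genes of 6. Of these 5, 4 were at least 2-fold lower, beside 6.22% of all genes. Low medians were not particular to this list, since the endothelial markers had a median of -1.17, with 7 of 10 compared at least 2-fold lower. The stroma markers had a median of -0.91, with 4 of 12. Htra1, a secreted serine protease with an IGFBP domain, was at 9.08 FPKM in ed/ed and 31.0 FPKM in f/f. Adam12, a metalloprotease that cuts IGFBP3 and IGFBP5 in human, was at 3.75 FPKM in ed/ed and 10.3 FPKM in f/f. Pappa, which encodes the protease of IGFBP4, was at 0.861 FPKM in ed/ed and 2.79 FPKM in f/f. Stc1, whose product stanniocalcin 1 inhibits PAPP-A, was also lower, at 8.54 FPKM in ed/ed and 20.9 FPKM in f/f. Both sides of this step, proteases and an inhibitor, thus had lower levels. Stc2, a second inhibitor of PAPP-A, was at 0.678 FPKM in ed/ed and 1.27 FPKM in f/f and was not called. Without the length trend 1 of the 5, Htra1, was 2-fold lower at -1.48, and the median was -0.84.

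Inside the cell the differences were smaller. Of 15 compared receptor substrates and adaptors, members included, 1 was lower and 0 higher, with a median of -0.39. Grb14, an adaptor that inhibits the insulin receptor, was at 2.04 FPKM in ed/ed and 5.76 FPKM in f/f. Socs2, a feedback inhibitor of growth hormone signalling, had the highest ratio of that list, at 25.4 FPKM in ed/ed and 12.9 FPKM in f/f, with a log2 ratio of 0.92, or 1.12 without the length trend. Gab1 and Trib3 were at 4.63 and 0.515 FPKM in ed/ed, against 7.89 and 1.504 FPKM in f/f, and neither was called. Of the 29 PI3K, AKT and mTOR genes, all compared, 1 was lower and 0 higher, and their median of -0.28 was next to that of all genes. Rptor, the mTORC1 scaffold gene raptor, was at 5.86 FPKM in ed/ed and 13.4 FPKM in f/f. Pik3r3, a PI3-kinase regulatory subunit gene, was just short of 2-fold at 14.5 FPKM in ed/ed and 30.0 FPKM in f/f. Pdpk1 and Mtor, 2 kinases of the pathway, were at 5.63 and 3.55 FPKM in ed/ed, against 10.02 and 6.25 FPKM in f/f.

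FOXO factors are held out of the nucleus when AKT is active, and their targets include Irs2 and the insulin receptor gene. Foxo1 was at 15.4 FPKM in ed/ed and 10.5 FPKM in f/f, whereas Foxo3 was at 10.8 and 15.01 FPKM and Foxo4 at 12.8 and 18.1 FPKM in ed/ed and f/f. None of the 3 was called. Of 13 compared FOXO-induced genes, 1 was higher and 0 lower, with a median of -0.38. The higher one was Gadd45a, a growth arrest and DNA damage gene that p53 also induces, at 20.8 FPKM in ed/ed and 8.46 FPKM in f/f. Ccng2, Txnip and Sesn3 lay on the other side of 0, at 19.6, 55.4 and 5.14 FPKM in ed/ed, against 36.6, 102 and 9.65 FPKM in f/f, and were not called.

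Steroid response is the usual setting of uterine Igf1. Of 15 compared genes of the estrogen list, which holds Igf1, 2 were higher and 0 lower, with a median of -0.06. Of 16 compared genes of the progesterone list 1 was higher and 4 were lower, with a median of -0.90. That list shares Hoxa10, Hoxa11, Hand2 and Nr2f2 with the stroma markers, so the lists are not independent. Of 17 proliferation genes 1 was lower and 0 higher, with a median of -0.46. Igf1, at -0.53, lay below the median of the estrogen list and above that of the progesterone list, and no difference between lists was tested.

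**Figure D5:**
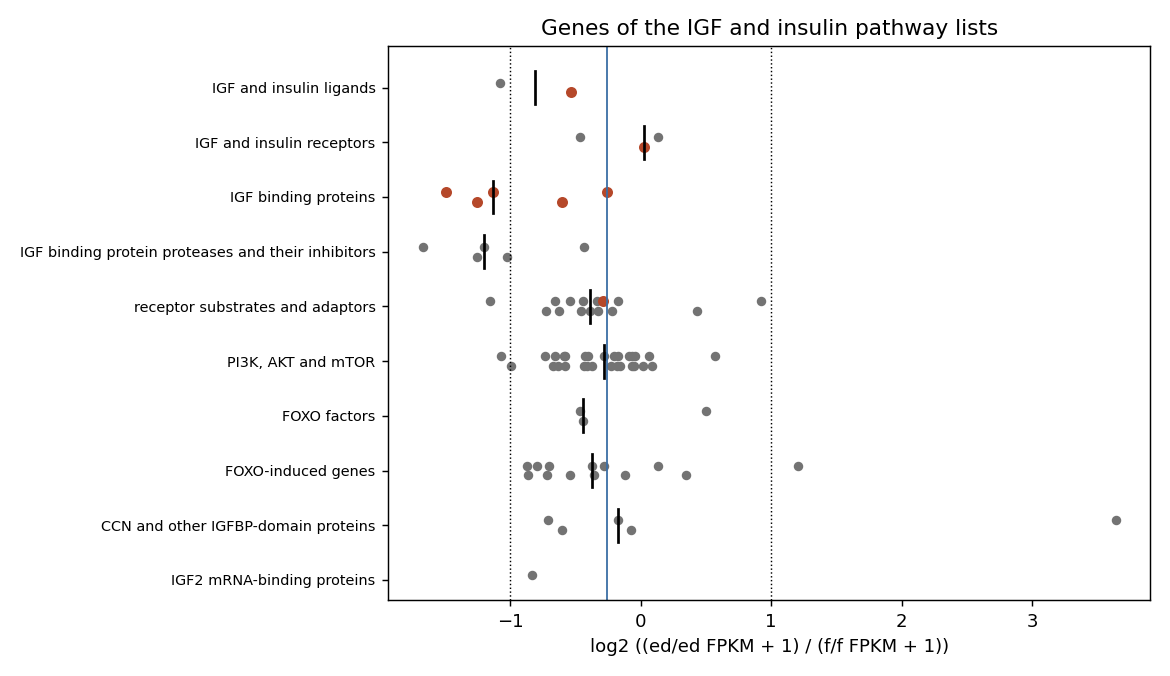
log2 ratio of ed/ed over f/f on the FPKM + 1 scale (x) of every compared gene in 10 IGF and insulin pathway lists (rows); red points are the members, grey points other genes, black ticks list medians, the solid line the median of all genes and dotted lines 2-fold (vertical offsets of points carry no value). The binding protein and protease rows centre to the left of the lower 2-fold line, while the receptor and PI3K, AKT and mTOR rows centre near or above the median of all genes.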

How the data were processed

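Total RNA was extracted with TRIzol and libraries were made with a TruSeq RNA kit, per the labels' protocols. The deposited tables hold 1 value per gene. They were read as FPKM as deposited by the authors, since the submitters' processing notes name Cufflinks 2.2.1, which writes that unit, beside HISAT2 2.2.1; the header names none. Those notes name builds mm9 and mm10 without a role, so coordinates and transcript lengths, from GENCODE M21 on GRCm38 (20557 identifiers matched), locate genes and not reads. FPKM depends on transcript length and on the most abundant genes of a library.

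A pseudocount of 1 FPKM and a filter of 1 FPKM in either library were used. Low values of single-transcript genes, times length less an offset of 250 nt, tend to fall on multiples of 1 fragment. Their spacing gave the depth, in 281 genes for ed/ed and 285 for f/f. The concentration of values at that spacing, which is 1 when all share it, was 0.414 in ed/ed and 0.4 in f/f. Fragments per member follow from it, with the shortest coding transcript. Exact 95% intervals of ratios come from the binomial split of fragments and cover counting error only. The depth estimate and fold calls were checked on simulated data. These were drawn with the offset of 250 nt and the single length per gene that the estimate assumes. The check therefore cannot show how well the estimate holds where the libraries depart from those settings. Lowess (fraction 0.3) of ratio on log2 transcript length took out the length trend of 12111 genes, which also centres ratios. Reference genes are 12 housekeeping genes, with 0 called. Analyses used Python 3.11.15, statsmodels 0.14.6 and scipy 1.17.1.

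Members and gene lists were chosen with earlier results of these data known. Genes named beyond the members are, in each pathway list, those called and up to 4 with the largest absolute ratio; Ins1, Ins2, Igfbp1, Igfbpl1, Igfals, Stc2, Igf2bp1 and Igf2bp3 complete pathway steps. With 2 libraries a pattern is 1 ratio, so genes of like pattern were not sought. A planned comparison of protein sequences was not made. Sequences of promoters matched all 10 members.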

Additional observations from a re-analysis of the deposited data

How the results depend on the processing

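No paired analysis was possible because each genotype has 1 library, and for the same reason no library could be left out. The count of members at least 2-fold lower, 3 as deposited, was 2 under upper-quartile scaling, 1 under scaling by the median ratio and 1 under scaling by the reference genes. By construction these scalings raise every ed/ed value. The count was 2 without the length trend, beside 2.85% of all genes. It was 1 when ratios were centred on all genes, beside 2.72%, a setting added after the data were seen. Shares of all genes called were not computed under the scalings, the other pseudocounts or the 1.5-fold rule, so counts there have no background beside them. The count of members at least 2-fold higher was 0 under every alternative run. The members' median log2 ratio of -0.56 was -0.35 under upper-quartile scaling, -0.29 under the median ratio, -0.26 under the reference genes and -0.33 without the length trend. The 7 other pathway genes called lower became 1 with a pseudocount of 5 FPKM, 4, 2 and 1 under the upper quartile, median ratio and reference genes, 1 without the length trend, 24 at 1.5-fold and 1 when centred. The 2 called higher became 1 with a pseudocount of 5, and 3 under all 4 scalings, without the length trend, at 1.5-fold and when centred. Their median of -0.42 became -0.30 with that pseudocount, -0.20, -0.14 and -0.11 under those 3 scalings, and -0.15 without the length trend. The summed binding protein ratio of 0.471 was 0.921 relative to the stroma markers, chosen after the data were seen. Of 88 single-member ratios under alternatives, 56 moved by less than the distance to the farther bound of the counting interval and 32 by more. None of the called ones changed sign. Those intervals used the shortest coding transcript, and a scaling moves well-expressed genes by nearly the same log2 amount. The tally therefore largely follows the width of the intervals and does not rank members by stability. Depth limits Igfbp2 and Irs2, with 1 and 10 fragments in ed/ed.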

Other observations

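Proteins that share the IGFBP domain without being classic IGF binding proteins were listed as well. Of 17 symbols in that list 5 were matched and compared, and 1 was higher. The CCN genes, entered there under older and newer symbols, were matched under neither and so were not examined. That was Htra4, a secreted serine protease related to Htra1, at 17.4 FPKM in ed/ed and 0.477 FPKM in f/f, a 12.5-fold higher level on the FPKM + 1 scale. Its relatives lay elsewhere, Htra1 at -1.67 and Htra3 at -0.17 on the log2 scale, with Htra3 at 3.41 FPKM in ed/ed and 3.97 FPKM in f/f. Crim1 and Kazald1 were at 1.49 and 0.539 FPKM in ed/ed, against 3.07 and 1.33 FPKM in f/f, and were not called.

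The IGF2 mRNA-binding proteins, known in human cells as readers of m6A, bind RNA and not IGF. Igf2bp2 was at 4.98 FPKM in ed/ed and 9.66 FPKM in f/f, a log2 ratio of -0.83. Igf2bp3 was at 0.139 FPKM in ed/ed and 0.145 FPKM in f/f, and Igf2bp1 was listed at 0 in both. The letters GGACT, the best known core of the m6A consensus, occurred 2.70 times per kilobase in the longest coding transcript of Igfbp6, 1.57 in Igfbp4, 1.17 in Igfbp5, 0.833 in Igfbp7 and 0.284 in Igf1, against a median of 1.05 over 12111 genes. The other members were at 1.74 for Irs2, 1.31 for Irs1, 1.23 for Igf1r, 0.413 for Igfbp3 and 0 for Igfbp2. The quartiles over all genes were 0.643 and 1.52, and the value of Igfbp7 rests on 1 match. The members called lower thus lay on both sides of that median, as did those not called. Methylation was not measured in these libraries.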
